A study of Mus musculus with 20 samples.

Results

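The epidermal growth factor (EGF) receptor family and its ligands were followed in 20 mouse mammary tumours as 10 named genes of the 38930 in the deposited table. They are the 4 receptors Egfr, Erbb2, Erbb3 and Erbb4, and the 6 ligands Areg, Ereg, Hbegf, Tgfa, Btc and Nrg1. They were chosen by name, with earlier results of these data known. Egfr and Erbb2 lie on chromosome 11, Erbb3 on 10, Erbb4 on 1, Tgfa on 6, Nrg1 on 8 and Hbegf on 18, and Areg, Ereg and Btc on 5. The table lists transcripts, so each gene is represented by the transcript with the highest total over the 20 libraries. Of the 10 members, 9 reached 10 normalised counts in 5 or more libraries and entered the test with 19840 genes, and Erbb4 did not.

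All tumours grew from SSM3, a single oestrogen receptor-positive mouse mammary tumour line, implanted in a mammary gland. The hosts were of the 129S6/SvEv strain and 2 to 4 months old, and treatment started once a tumour measured about 150 mm3. The 4 groups had 5 tumours each. Mice of the letrozole + anti-PD-1 group were ovariectomised and given letrozole, an inhibitor of the aromatase that makes oestrogen, at 1 mg/kg daily for 25 days, plus 250 µg of antibody against the checkpoint receptor PD-1 on days 3, 5 and 7 after surgery. The letrozole group had the ovariectomy and the drug alone. The anti-PD-1 group had sham surgery, 5% ethanol in saline and the antibody, and the vehicle group had sham surgery and 5% ethanol in saline. Ovariectomy and the drug were never given separately, and their effects cannot be told apart. The word "letrozole" stands for both, and "sham-operated" for the anti-PD-1 and vehicle groups together.

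The family is a growth signal that passes between cells or back to the same cell. Ligands are made as membrane-bound precursors, released by proteases, and bind EGFR, ERBB3 or ERBB4, while ERBB2 has no known ligand of its own and pairs with the other receptors. ERBB3 has a weak kinase and signals mainly through PI3 kinase when paired with ERBB2. In the mouse mammary gland, oestrogen drives ductal growth largely through amphiregulin, encoded by Areg, which acts on EGFR, so that Areg is known as an oestrogen target there.

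Depth on named genes ran from 12454194 to 31297742 reads per library, with anti-PD-1 replicate 1 the shallowest. Libraries of a group correlated at r = 0.939 to 0.969 over genes. The 10 luminal epithelial markers summed to 245450 to 341553 normalised counts per library. Their sum was thus high in every tumour, although only 9 of the 10 were high enough to be tested. Of these 9, Epcam and Gata3 rose with letrozole averaged over both arms, where 3.29% of all tested genes rose. The median log2 change of the 9 was 0.15, beside 0.03 for all tested genes. An unadjusted p under 0.05 by limma was held by 3 of them, against 22.9% of all tested genes. The fibroblast markers varied more widely. Their sum ran from 12326 to 46423 in letrozole + anti-PD-1 tumours, from 9451 to 76911 in letrozole tumours, from 6044 to 42786 in anti-PD-1 tumours and from 2568 to 67420 in vehicle tumours, and vehicle replicate 3 held the last of these. Macrophage markers summed to 5710 to 13573, 6720 to 13622, 2645 to 10442 and 1846 to 19115 in the same groups. All 10 fibroblast markers were detected, and none was at 0 throughout a group. With letrozole averaged over both arms the median log2 change was 0.87 for the fibroblast, 0.76 for the macrophage and 1.19 for the basal markers, beside 0.03 for all tested genes. None of these 30 markers passed after adjustment by limma, and 3, 7 and 4 of 10 had an unadjusted p under 0.05, against 22.9% of all tested genes. In bulk tumours, fewer cells of a type and less RNA per cell cannot be told apart.

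Letrozole moved the family in both directions. Over both antibody arms, Btc and Ereg fell, Tgfa and Erbb2 rose, and 5 of the 9 tested members, Areg among them, did not pass the test at an adjusted p of 0.05. In that comparison 7.00% of all tested genes were called, 3.29% as higher and 3.71% as lower. The median log2 change of the 9 members was 0.03, and that of all tested genes was also 0.03. Unless another test is named, every adjusted p below is from limma on log2(normalised count + 1), adjusted by the Benjamini-Hochberg method over all 19840 genes, and the effect of letrozole is averaged over both arms.

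**Figure D1:**
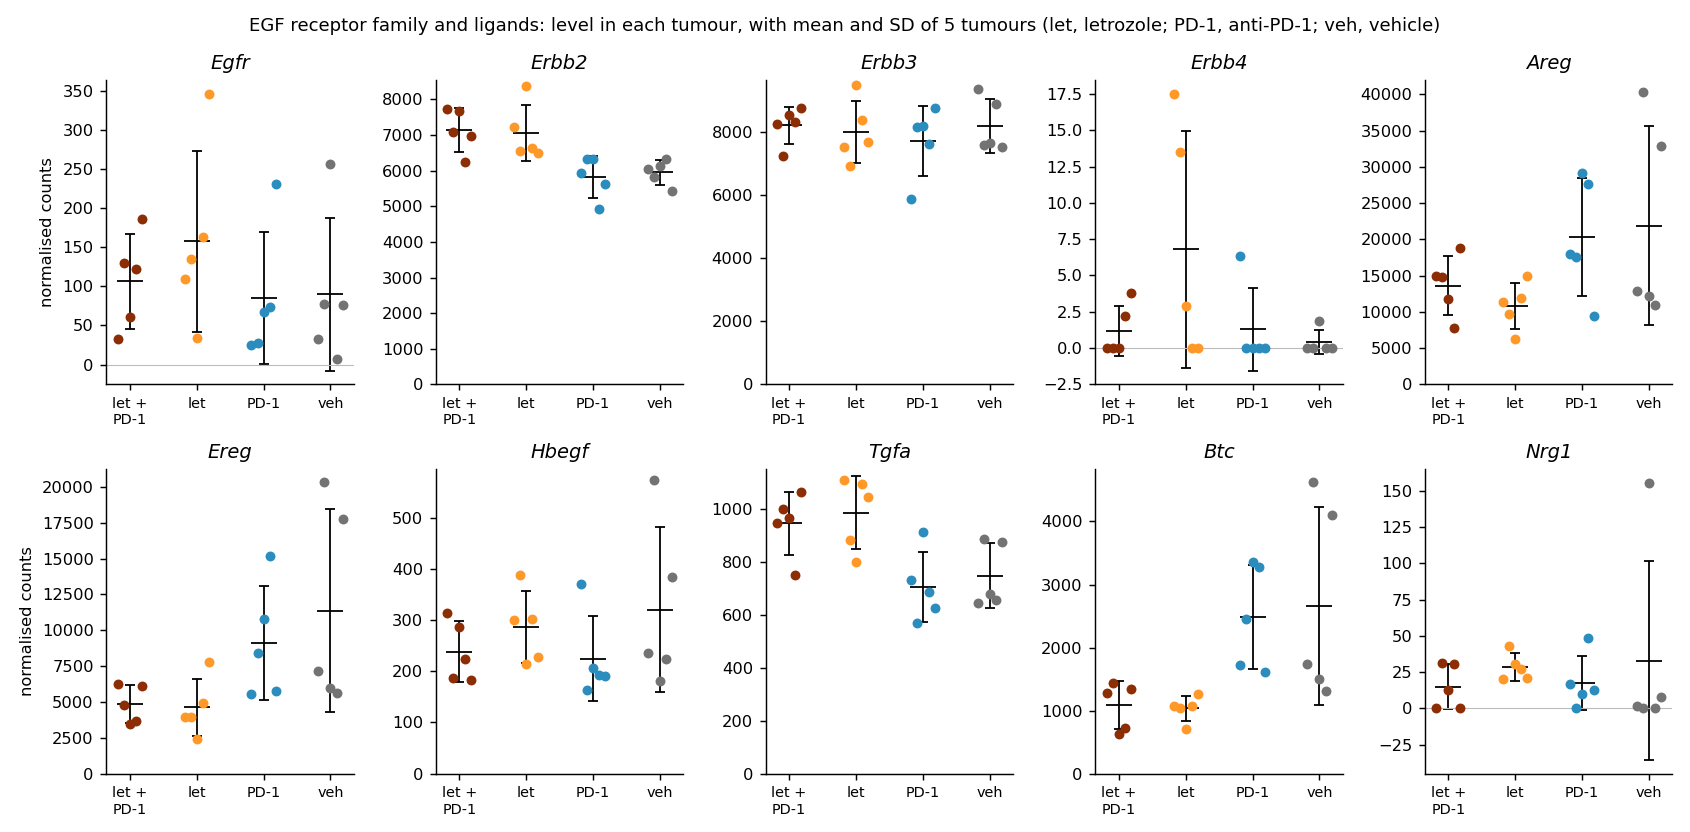
Normalised counts (y axis, linear, a scale of its own for each gene) of the 10 members in each tumour of letrozole + anti-PD-1 (let + PD-1), letrozole (let), anti-PD-1 (PD-1) and vehicle (veh), drawn left to right. Points are tumours and bars are the mean and SD of 5. Btc lies at or below 1446 in all letrozole-treated tumours, and 9 of 10 sham-operated tumours lie above that, while Erbb2 shows the opposite arrangement.

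Areg, the amphiregulin gene (ENSMUST00000031325, 1215 bases), was the most abundant member per transcript length, at the 99.7 percentile of tested genes. Its level in normalised counts was 14951, 14814, 11754, 7842 and 18813 in the letrozole + anti-PD-1 tumours and 11385, 9658, 6305, 11908 and 14944 in the letrozole tumours. They were 17956, 17552, 29214, 27696 and 9473 in the anti-PD-1 tumours and 12925, 40315, 12246, 10957 and 32834 in the vehicle tumours. The groups overlapped: 9 of 10 letrozole-treated tumours lay below the sham-operated median of 17754, and 4 sham-operated tumours lay above every letrozole-treated one, but 3 of the 5 vehicle tumours lay within the letrozole range.

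The mean level of Areg was 13635 ± 4093 in letrozole + anti-PD-1 tumours, 10840 ± 3172 in letrozole tumours, 20378 ± 8130 in anti-PD-1 tumours and 21855 ± 13713 in vehicle tumours (SD, n = 5 each). The averaged log2 change with letrozole was -0.69 (SE 0.26, 95% interval -1.22 to -0.15), with an unadjusted p of 0.0148 and an adjusted p of 0.114, so the difference did not pass the test over all genes. DESeq2 on recovered reads, which called 9.91% of all tested genes, called it at a log2 change of -0.80 and an adjusted p of 0.0359, as did limma without anti-PD-1 replicate 5, the sham-operated tumour with the lowest Areg, at -0.81 and 0.0495. Over all alternatives the adjusted p ran from 0.0359 to 0.194.

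Levels of Pgr and Stc2, both oestrogen targets, did not overlap between letrozole-treated and sham-operated tumours, whereas those of Areg did. The share of all tested genes without such overlap was not counted, and overlap is not given for the other tested targets below. Pgr and Stc2 had the largest falls among these targets, so the contrast does not set Areg apart from oestrogen targets in general. Of 8 genes in a list of the oestrogen receptor and classical targets, 5 were tested. Of these, 4 fell, where 3.71% of all tested genes did. Pgr, the progesterone receptor, averaged 1235 ± 346 normalised counts in letrozole + anti-PD-1 tumours and 1370 ± 361 in letrozole tumours, against 13533 ± 4150 in anti-PD-1 tumours and 15626 ± 2694 in vehicle tumours (SD, n = 5 each), a log2 change of -3.49 (SE 0.17). Stc2, a secreted glycoprotein, changed by -2.61, Nrip1, a corepressor of nuclear receptors, by -0.76 and Wnt4, a secreted signal of mammary side branching, by -0.70 with an adjusted p of 0.0361. The fall of Wnt4 was lost in 12 of 32 alternatives. Esr1, the oestrogen receptor itself, changed by 0.13 (adjusted p = 0.457). Greb1, Tff1 and Tnfsf11 were too low to be tested, none above 18.1 normalised counts in any tumour. The median log2 change of the 5 tested was -0.76, beside 0.03 for all tested genes. The point estimate of Areg, -0.69, was close to those of Nrip1 and Wnt4. The SD of Areg in vehicle tumours was 13713 around a mean of 21855, whereas that of Nrip1 was 439 around 2356.

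Ereg, which encodes epiregulin, a ligand of EGFR and ERBB4 (ENSMUST00000031324, 4128 bases), fell. Normalised counts of Ereg were 6248, 4803, 3488, 3664 and 6101 in the letrozole + anti-PD-1 tumours and 3959, 3981, 2412, 4949 and 7805 in the letrozole tumours. They were 5553, 8434, 10767, 15161 and 5786 in the anti-PD-1 tumours and 7139, 20350, 5993, 5636 and 17739 in the vehicle tumours. Of the letrozole-treated tumours, 7 lay below every sham-operated tumour, and 5 sham-operated tumours lay above every letrozole-treated one. The averaged log2 change was -1.01 (SE 0.26, 95% interval -1.56 to -0.47, adjusted p = 0.0226), or 2.02-fold lower. Ereg shares 3.42% of its exon bases with Gm19610 on the opposite strand, and it is not known here whether the counting used strand.

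Btc, which encodes betacellulin, another ligand of EGFR and ERBB4 (ENSMUST00000121044, 2876 bases), showed the clearest separation among the ligands. In normalised counts, Btc was 1274, 1446, 625, 726 and 1351 in the letrozole + anti-PD-1 tumours and 1071, 1048, 716, 1072 and 1267 in the letrozole tumours. They were 1728, 2447, 3362, 3285 and 1608 in the anti-PD-1 tumours and 1746, 4630, 1509, 1314 and 4099 in the vehicle tumours. All 10 letrozole-treated tumours lay below the sham-operated median, and of the sham-operated tumours only vehicle replicate 4, at 1314, reached into the letrozole range. The averaged log2 change was -1.20 (SE 0.24, 95% interval -1.69 to -0.70, adjusted p = 0.0043), or 2.29-fold lower.

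Tgfa, which encodes transforming growth factor alpha, a ligand of EGFR (ENSMUST00000032066, 4527 bases), moved the other way. Its normalised counts were 948, 1001, 964, 750 and 1065 in the letrozole + anti-PD-1 tumours and 1108, 882, 801, 1094 and 1043 in the letrozole tumours. They were 733, 569, 913, 685 and 628 in the anti-PD-1 tumours and 645, 886, 680, 655 and 874 in the vehicle tumours. All 10 letrozole-treated tumours lay above the sham-operated median of 682, and 7 of them above every sham-operated tumour. The averaged log2 change was 0.42 (SE 0.10, 95% interval 0.21 to 0.62, adjusted p = 0.0145), or 1.33-fold higher. Tgfa shares 2.61% of its exon bases with Gm43917 on the opposite strand.

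Hbegf, which encodes the heparin-binding ligand of EGFR and ERBB4, averaged 238 ± 59.1 normalised counts in letrozole + anti-PD-1 tumours, 286 ± 69.6 in letrozole tumours, 225 ± 82.9 in anti-PD-1 tumours and 320 ± 161 in vehicle tumours (SD, n = 5 each). Its log2 change with letrozole was 0.03 (95% interval -0.39 to 0.44, adjusted p = 0.955), and its sign turned in 12 of 32 alternatives. Nrg1, which encodes neuregulin 1, a ligand of ERBB3 and ERBB4, was low and scattered. Its normalised counts were 0, 31.3, 12.4, 30.6 and 0 in the letrozole + anti-PD-1 tumours, 20.5, 43.3, 30.7, 27.5 and 20.7 in the letrozole tumours, 16.9, 0, 9.7, 48.9 and 12.99 in the anti-PD-1 tumours and 1.8, 0, 155, 0 and 7.9 in the vehicle tumours. The value of 155 came from vehicle replicate 3, the library of that group with the largest fibroblast marker sum. Its macrophage (19115), basal (4710), endothelial (8738), adipocyte (1983) and T cell (368) marker sums were also the largest of that group. The part of these cells in the Nrg1 value was not tested. The log2 change of Nrg1 was 0.89 with a 95% interval of -1.03 to 2.81 (adjusted p = 0.601), and edgeR and DESeq2 on recovered reads gave -0.21 and -0.23, so no direction could be read at this level.

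Of the other ligands of these receptors, a list of 5 genes, 4 were tested and none was called. Epgn, the epithelial mitogen that binds EGFR, averaged 92.9 ± 79.9 normalised counts in letrozole + anti-PD-1 tumours, 113 ± 57.4 in letrozole tumours, 208 ± 127 in anti-PD-1 tumours and 449 ± 390 in vehicle tumours (SD, n = 5 each), a log2 change of -1.41 (adjusted p = 0.0541). Nrg2 averaged 12.4 ± 11.7, 9.82 ± 6.64, 2.07 ± 2.53 and 1.22 ± 1.74 normalised counts in the same groups, a log2 change of 2.04 (adjusted p = 0.0552). The log2 changes of Nrg4 and Egf were -0.17 and -0.06. Nrg3 was not tested, with a highest value of 1.65 normalised counts.

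**Figure D2:**
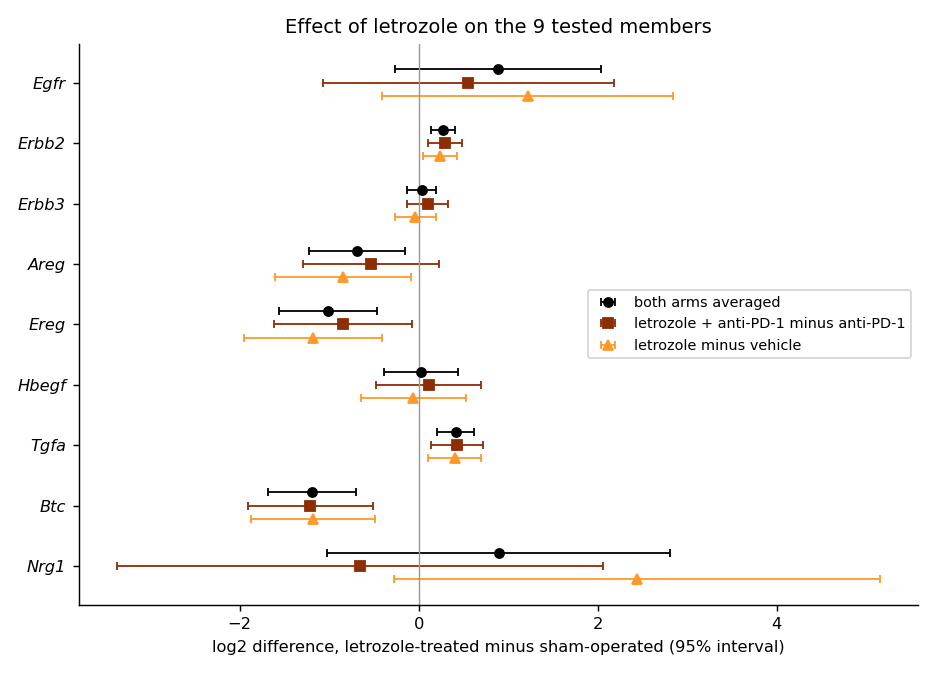
Log2 difference of letrozole-treated minus sham-operated tumours (x axis) with its 95% interval for the 9 tested members. Circles average both arms, squares compare letrozole + anti-PD-1 with anti-PD-1, and triangles compare letrozole with vehicle. The averaged intervals of Btc, Ereg and Areg lie below 0 and those of Tgfa and Erbb2 above it, although Areg did not pass after adjustment.

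Among the receptors, Erbb2 rose. Erbb2 encodes the receptor without a known ligand (ENSMUST00000058295, 5012 bases). In normalised counts, Erbb2 was 7739, 7074, 7688, 6249 and 6973 in the letrozole + anti-PD-1 tumours and 7217, 6551, 8381, 6634 and 6509 in the letrozole tumours. They were 5943, 6329, 6337, 4926 and 5631 in the anti-PD-1 tumours and 6060, 5822, 6142, 6316 and 5430 in the vehicle tumours. Of the 10 letrozole-treated tumours, 9 lay above every sham-operated tumour, and the remaining one, at 6249, lay above the sham-operated median of 6002. The averaged log2 change was small, 0.27 (SE 0.06, 95% interval 0.13 to 0.40, adjusted p = 0.0155), or 1.20-fold higher. When each library was centred on its median, the log2 change was 0.23 and the adjusted p 0.0904. The luminal marker sums ran from 274842 to 324098 in letrozole + anti-PD-1 tumours, from 278418 to 331034 in letrozole tumours, from 247802 to 341553 in anti-PD-1 tumours and from 245450 to 318984 in vehicle tumours. Their part in the rises of Erbb2 and Tgfa was not tested.

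Erbb3, which encodes the receptor with the weak kinase (ENSMUST00000082059, 6016 bases), was close to Erbb2 in level per transcript length and did not pass the test. It averaged 8203 ± 585 normalised counts in letrozole + anti-PD-1 tumours, 7985 ± 974 in letrozole tumours, 7701 ± 1110 in anti-PD-1 tumours and 8182 ± 857 in vehicle tumours (SD, n = 5 each). The log2 change of Erbb3 was 0.03 with a 95% interval of -0.13 to 0.19 (adjusted p = 0.846), and its sign turned in 3 of 32 alternatives.

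Egfr, the receptor for Areg, Ereg, Btc, Tgfa and Hbegf (ENSMUST00000020329, 10208 bases), was low in these tumours, at the 15.2 percentile of tested genes per transcript length. That rank depends on the transcript kept, which totalled 2193 normalised counts over the 20 libraries. Shorter protein-coding entries of 2943 and 463 bases totalled 946 and 619, which is more for their length, and were not ranked. Normalised counts of Egfr were 32.5, 130, 60.3, 122 and 186 in the letrozole + anti-PD-1 tumours and 109, 135, 33.5, 162 and 346 in the letrozole tumours. They were 25.4, 27.9, 67.6, 73.9 and 230 in the anti-PD-1 tumours and 33.0, 77.2, 256, 7.14 and 76.5 in the vehicle tumours. The groups overlapped throughout, and the log2 change was 0.89 with a 95% interval of -0.26 to 2.04 (adjusted p = 0.354). In 3 of the 4 groups the tumour with the highest Egfr was also the one with the largest fibroblast marker sum. These were letrozole replicate 5 (sum 76911), anti-PD-1 replicate 5 (sum 42786) and vehicle replicate 3 (sum 67420). In the letrozole + anti-PD-1 group replicate 5 had the highest Egfr, with a sum of 28502, and replicate 2 the largest sum, 46423. The macrophage marker sum was also the largest of its group in letrozole replicate 5 (13622), anti-PD-1 replicate 5 (10442) and vehicle replicate 3 (19115). The basal marker sum was the largest of its group in letrozole replicate 5 (23748) and vehicle replicate 3 (4710) and not in anti-PD-1 replicate 5 (2181, against 3254 in replicate 3). The part of these cells in the Egfr values was not tested.

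Erbb4, the second neuregulin receptor (ENSMUST00000121473), was at or near 0. Its normalised counts were 0, 0, 0, 2.2 and 3.8 in the letrozole + anti-PD-1 tumours, 17.5, 13.5, 2.9, 0 and 0 in the letrozole tumours, 6.4, 0, 0, 0 and 0 in the anti-PD-1 tumours and 0, 0, 1.9, 0 and 0 in the vehicle tumours. It was at 0 in 13 of 20 libraries. A count of 0 allows up to 3 reads, or at most 6.35 normalised counts in the shallowest library, which covers counting error only. Without the filter on low values its averaged log2 change was 0.96 (adjusted p = 0.493).

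Per transcript length, the receptors were almost wholly Erbb2 and Erbb3, and the ligands almost wholly Areg. Of the summed level of the 4 receptors, Erbb2 made up 50.9% in letrozole + anti-PD-1 tumours, 51.2% in letrozole tumours, 47.6% in anti-PD-1 tumours and 46.5% in vehicle tumours, and Erbb3 made up 48.7%, 48.2%, 52.1% and 53.1% in the same groups. Of the summed level of the 6 ligands, Areg made up 85.4% ± 2.23, 83.0% ± 1.00, 82.9% ± 3.37 and 81.6% ± 0.776 in these groups (SD, n = 5 each). The ligand sum was 13089 ± 3759 and 10745 ± 3159 normalised counts per kb in letrozole + anti-PD-1 and letrozole tumours, against 20105 ± 7788 and 21974 ± 13631 in anti-PD-1 and vehicle tumours (SD, n = 5 each). The sum was not tested.

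**Figure D3:**
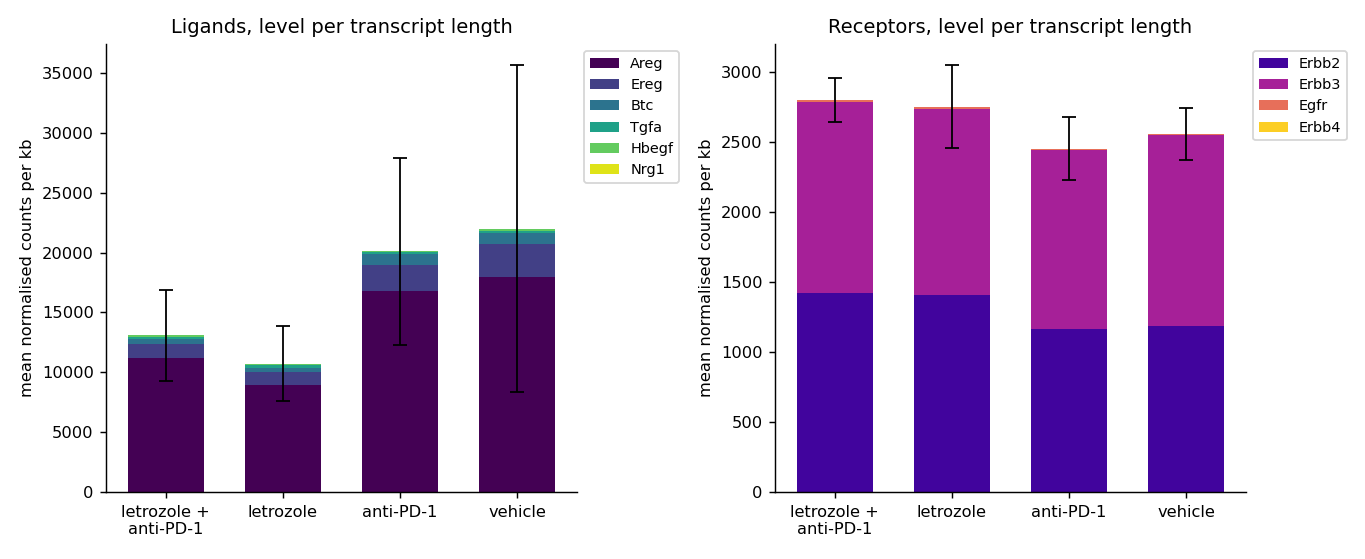
Mean normalised counts per kb of transcript (y axis from 0) of the 6 ligands (left) and the 4 receptors (right), stacked, in the 4 groups. Error bars are the SD of the sum over 5 tumours. Areg fills 81.6% to 85.4% of each ligand bar, and Erbb2 and Erbb3 fill nearly all of each receptor bar.

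Areg, Ereg and Btc varied together between tumours of a group. Deviations of log2 levels from the group means were correlated over the 20 libraries for all 36 pairs of tested members, with p-values from 100000 permutations within groups, adjusted over the 36 pairs. This comparison was chosen after the levels had been seen. The share of pairs among all tested genes that would pass was not counted. Genes outside the family also varied with Areg within groups, among them Plcd3 (r = 0.79), Cyp51 (r = 0.77) and Snx5 (r = 0.75), so such correlation is not particular to the family. Of the 36 pairs, 5 passed, all positive and all among Areg, Ereg, Btc and Tgfa, and none of the pairs with Hbegf, whose r with these 4 ran from 0.35 to 0.46. Areg and Btc correlated at r = 0.92 and rho = 0.93, Ereg and Btc at r = 0.92 and rho = 0.90, and Areg and Ereg at r = 0.91 and rho = 0.90. Each of these had an unadjusted permutation p of at most 2e-05, where 1e-05 is the smallest possible. Without the 2 tumours farthest from the median of the first gene, the r values were 0.90, 0.89 and 0.90.

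Tgfa correlated with Areg and Btc within groups, although it moved the other way with letrozole. Areg and Tgfa correlated at r = 0.82 and rho = 0.82 (adjusted permutation p = 0.00225 and 0.00243), and at r = 0.82 without the 2 farthest tumours. Tgfa and Btc correlated at r = 0.68 and rho = 0.71 (adjusted permutation p = 0.0241 and 0.0186), and at r = 0.65 without the 2 farthest. Ereg and Tgfa, at r = 0.63 and rho = 0.64, did not pass (adjusted permutation p = 0.0593 and 0.0509), with r = 0.53 without the 2 farthest. Vehicle replicates 2 and 5 and anti-PD-1 replicates 3 and 4 were the 4 sham-operated tumours with the highest Areg and the highest Btc. Fibroblast marker sums in these 4 were 17762, 19854, 20834 and 18883, and luminal marker sums 318984, 277913, 293982 and 248781. The other tumours ran from 2568 to 76911 and from 245450 to 341553, ranges so wide that lying inside them says little. Basal marker sums in the 4 were 2586, 1699, 3254 and 1731, and that of anti-PD-1 replicate 3 was the largest of its group. The part of any cell type in these levels was not tested.

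The levels of Btc, Ereg and Tgfa can also be given relative to Areg in the same tumour. Btc was 8.91% ± 1.73 of the Areg value in the 10 letrozole-treated tumours and 12.6% ± 1.94 in the 10 sham-operated tumours (SD), a log2 difference of -0.51, and all 10 lay below the sham-operated median. Ereg was 39.1% ± 7.04 of Areg in letrozole-treated tumours and 49.2% ± 8.98 in sham-operated tumours (SD), a log2 difference of -0.33, with 9 of 10 below. Tgfa was 8.43% ± 2.09 of Areg in letrozole-treated tumours and 4.09% ± 1.59 in sham-operated tumours (SD), a log2 difference of 1.10, with 10 of 10 above. These 3 ratios are of normalised counts without division by length. They were chosen after the levels had been seen and restate the differences given above, so they carry no test.

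**Figure D4:**
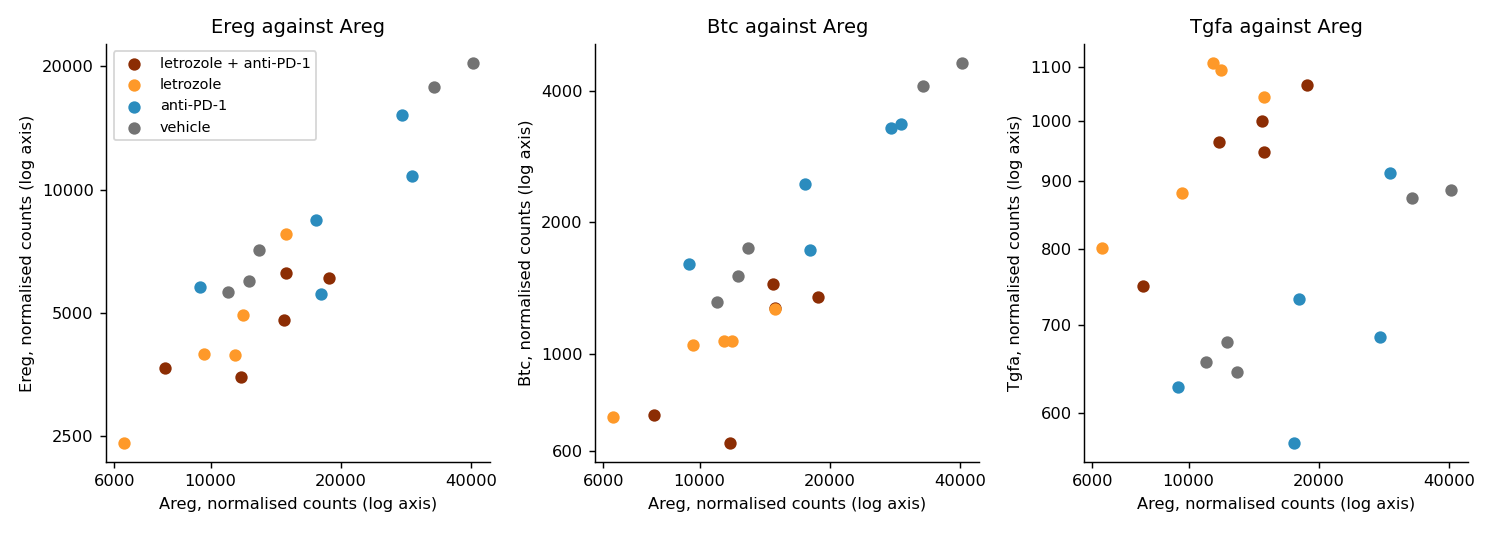
Normalised counts of Ereg, Btc and Tgfa (y axes, log) against Areg (x axis, log) in each of the 20 tumours, coloured by group. Ereg and Btc climb with Areg across all tumours, while letrozole-treated tumours lie above sham-operated tumours of a similar Areg level in Tgfa, with both sets climbing with Areg.

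Over all 20 libraries, without removing group means, the gene whose log2 level was most like that of Areg among 14957 genes ranked was Ereg (r = 0.92), followed by Btc (r = 0.89). The next were Snx5, a sorting nexin of endosomes (r = 0.83), Il1r1, the interleukin 1 receptor (r = 0.79), and Cyp51, an enzyme of cholesterol synthesis (r = 0.78). Epgn ranked 19th (r = 0.72), Stc2 274th (r = 0.56), Nrip1 280th (r = 0.56) and Pgr 426th (r = 0.52). These values describe 20 tumours that share a cell line, and carry no test.

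Areg, Ereg, Btc and Epgn are neighbours on mouse chromosome 5. In the order of the GENCODE vM21 annotation, Mthfd2l is followed by Epgn, Gm19610, Ereg, Areg, Gm19619, Btc and Parm1 among the tested genes. The flanking genes were looked at after the ligands had been seen. All 6 tested genes from Epgn to Btc had lower point estimates with letrozole, between -0.69 for Areg and -1.93 for Gm19619. The 2 that passed were Ereg and Btc, which were known to have fallen before the stretch was chosen. Their count can therefore not be read against the 3.71% of all tested genes that fell. Epgn (adjusted p = 0.0541), Gm19610 (0.0693), Gm19619 (0.0812) and Areg (0.114) did not pass. Gm19610 overlaps exons of Ereg on the opposite strand, and its deviations from group means correlated with those of Ereg at r = 0.88. Whether its reads are separate from those of Ereg was not tested. Mthfd2l, a mitochondrial folate enzyme at one edge, changed by -0.15 (adjusted p = 0.519), and Parm1 at the other edge by 0.44 (adjusted p = 0.0667).

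Farther out, beyond Mthfd2l, lies a group of chemokine genes. Of the 5 tested, Cxcl5, Cxcl3 and Cxcl15 fell, where 3.71% of all tested genes did. Cxcl1 changed by -0.76 (adjusted p = 0.125) and Pf4 by 0.76 (adjusted p = 0.370). Gm43085, a predicted gene in the same stretch, also fell, by -1.90 (adjusted p = 0.0341), at 11.1 normalised counts in letrozole-treated and 36.1 in sham-operated tumours. This stretch too was looked at after the ligands had been seen, so the count is a description only. Cxcl15 averaged 223 normalised counts in letrozole-treated and 780 in sham-operated tumours, a log2 change of -2.10 (adjusted p = 0.00395). Cxcl5 and Cxcl3 were low, at 4.50 and 6.61 in letrozole-treated and 20.1 and 30.9 in sham-operated tumours, with log2 changes of -2.60 (adjusted p = 0.0022) and -2.50 (adjusted p = 0.00477). The correlation of deviations from group means with those of Areg was 0.30 for Cxcl5, 0.18 for Cxcl3 and -0.03 for Cxcl15. It was 0.69 for Epgn, 0.73 for Gm19610 and 0.24 for Gm19619 inside the ligand cluster, and 0.53 for Mthfd2l and 0.52 for Gm42530 outside it. These values thus did not divide at the edge of the cluster, and their differences were not tested.

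**Figure D5:**
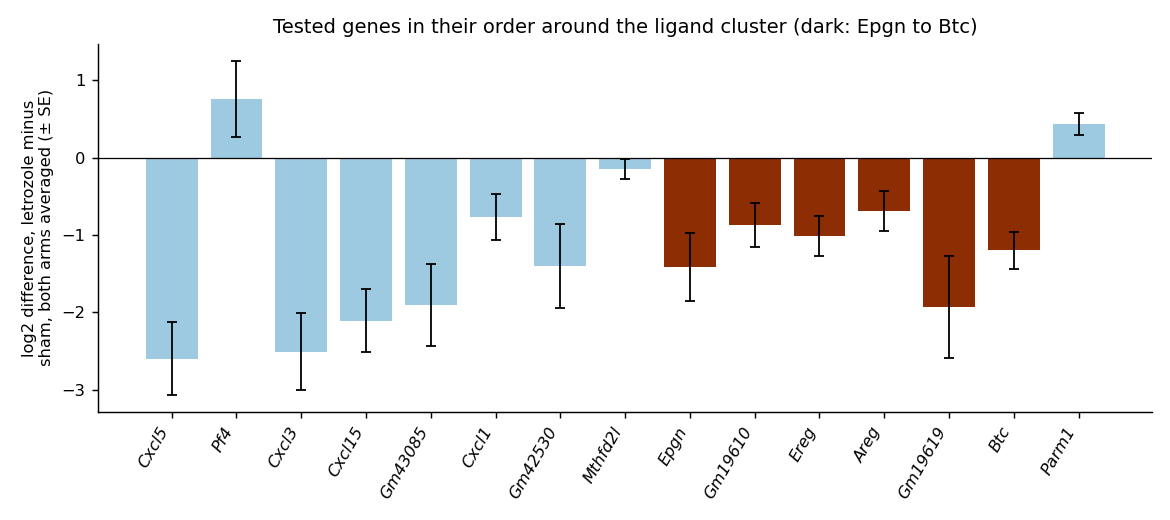
Log2 difference of letrozole-treated minus sham-operated tumours, averaged over both arms (y axis, bars ± SE), for the tested genes around the ligand cluster in their chromosomal order (x axis, not to distance). Dark bars run from Epgn to Btc and all lie below 0, and Mthfd2l and Parm1 at the edges lie at -0.15 and 0.44.

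Promoter sequence of 300 bases, from 250 before to 50 after the start, was found for 6 of the 10 members in RefSeq on GRCm38.p6. The 3 neighbouring ligands with an entry are shown because their levels moved together, and Tgfa because it did not share their direction. Capitals mark matches to 7 motifs searched on both strands: the oestrogen response element GGTCANNNTGACC and the single arm of it, GGTCA, the cAMP response element TGACGTCA and the single arm of it, TGACG, the AP-1 site TGANTCA, the GC box GGGCGG and the TATA box TATAAA. Positions are counted from the start site. The promoter window of Areg is chr5:91139349-91139648 on the plus strand, that of Epgn chr5:91027267-91027566 on the plus strand, that of Btc chr5:91402945-91403244 on the minus strand and that of Tgfa chr6:86194972-86195271 on the plus strand.
Areg: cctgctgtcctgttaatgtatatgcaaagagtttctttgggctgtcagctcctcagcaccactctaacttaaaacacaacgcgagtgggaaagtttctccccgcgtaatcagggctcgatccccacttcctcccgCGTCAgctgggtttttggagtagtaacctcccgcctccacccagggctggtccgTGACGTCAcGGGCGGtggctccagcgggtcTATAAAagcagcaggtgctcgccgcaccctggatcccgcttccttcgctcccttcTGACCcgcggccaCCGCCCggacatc
Epgn: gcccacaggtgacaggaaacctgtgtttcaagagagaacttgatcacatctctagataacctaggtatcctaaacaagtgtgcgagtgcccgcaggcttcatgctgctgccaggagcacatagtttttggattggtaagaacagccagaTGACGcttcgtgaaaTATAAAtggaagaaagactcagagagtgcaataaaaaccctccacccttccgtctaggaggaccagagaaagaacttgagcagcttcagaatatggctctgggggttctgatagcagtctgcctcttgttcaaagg
Btc: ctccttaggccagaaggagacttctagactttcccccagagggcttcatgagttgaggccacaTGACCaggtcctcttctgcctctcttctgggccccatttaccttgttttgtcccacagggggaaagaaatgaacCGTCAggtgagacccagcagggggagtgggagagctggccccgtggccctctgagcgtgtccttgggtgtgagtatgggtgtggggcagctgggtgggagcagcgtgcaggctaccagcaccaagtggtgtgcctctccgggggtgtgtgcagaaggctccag
Tgfa: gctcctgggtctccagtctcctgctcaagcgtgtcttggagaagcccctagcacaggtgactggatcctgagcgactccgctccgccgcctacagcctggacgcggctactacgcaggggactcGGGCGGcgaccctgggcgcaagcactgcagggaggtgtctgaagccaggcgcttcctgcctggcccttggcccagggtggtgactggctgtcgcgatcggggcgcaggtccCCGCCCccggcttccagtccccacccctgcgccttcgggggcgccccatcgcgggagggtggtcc

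The Areg promoter holds a full cAMP response element at -61 to -54, which itself contains 2 overlapping arms, a separate arm at -115 to -111, GC boxes at -52 to -47 and 38 to 43, a TATA box at -31 to -26 and an oestrogen element arm at 25 to 29. Of 32851 promoters of this length, 1.79% hold the full cAMP response element, 20.8% its arm, 40.5% the oestrogen element arm, 35.7% a GC box, 13.6% a TATA box and 7.81% an AP-1 site. Btc has an oestrogen element arm at -187 to -183 and a cAMP element arm at -113 to -109, and Epgn a cAMP element arm at -101 to -97 and a TATA box at -86 to -81. Tgfa has GC boxes at -126 to -121 and -15 to -10. Among the members with an entry that are not shown, Egfr has oestrogen element arms at -192 to -188 and -115 to -111. It also has a GC box at -9 to -4. Erbb4 has an oestrogen element arm at -68 to -64 and Erbb2 a cAMP element arm at -171 to -167. Oestrogen element arms were thus not limited to members that fell, and a link of any motif to direction was not tested. The full oestrogen response element, held by 0.0700% of promoters, was in none of the 4. A match is a description of letters and not a binding site, and its absence concerns this window only.

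Of 62 other genes of the pathway in 5 lists, 4 passed the test of letrozole, which is 6.45% and near the 7.00% of all tested genes. None of 7 genes of ligand release by proteolysis, 11 receptor inhibitors and degradation genes, or 16 adaptors and members of the Ras to ERK cascade was called by limma. At an unadjusted p under 0.05 these lists held 0, 3 and 1 genes, against 22.9% of all tested genes. Their median log2 changes were 0.08, 0.06 and 0.03, beside 0.03 for all genes.

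In the PI3 kinase branch, 2 of 11 genes rose, both regulatory subunits, where 3.29% of all tested genes rose. Pik3r1 averaged 4545 ± 880 normalised counts in letrozole + anti-PD-1 tumours and 4938 ± 1489 in letrozole tumours, against 2869 ± 603 in anti-PD-1 tumours and 2909 ± 593 in vehicle tumours (SD, n = 5 each), a log2 change of 0.71 (adjusted p = 0.00326). Pik3r3 changed by 0.40 (adjusted p = 0.035), a call lost in 12 of 32 alternatives. The other 9 did not pass.

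Of 17 ERK-induced targets and feedback genes, 1 fell and 1 rose, where 3.71% of all tested genes fell and 3.29% rose. Myc, a growth-promoting transcription factor, averaged 2515 ± 578 in letrozole + anti-PD-1 tumours and 2522 ± 659 in letrozole tumours, against 4602 ± 1390 in anti-PD-1 tumours and 3943 ± 808 in vehicle tumours (SD, n = 5 each), a log2 change of -0.75 (adjusted p = 0.00345). Fos, an immediate early gene of the AP-1 factor, changed by 0.42 (adjusted p = 0.037), a call lost in 16 of 32 alternatives. The median of the 17 was -0.01, beside 0.03 for all tested genes.

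Within single arms no member passed. For letrozole + anti-PD-1 against anti-PD-1, 1.07% of all tested genes were called and the smallest adjusted p of a member was 0.0901, for Btc. For letrozole against vehicle, 0.958% were called and the smallest was 0.104, also for Btc. For letrozole + anti-PD-1 against vehicle, 1.18% were called and the smallest was 0.0926, again for Btc. At an unadjusted p under 0.05 these comparisons held 4, 5 and 4 of the 9 tested members, against 13.4%, 13.9% and 13.2% of all tested genes. DESeq2 called 1, 2 and 1 members and 2.64%, 3.14% and 3.44% of all tested genes. The estimates of Btc were -1.21, -1.18 and -1.17 and those of Tgfa 0.43, 0.40 and 0.34 in the same order. The comparisons share groups and are not independent of each other.

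The antibody left no called change in the family. For anti-PD-1 against vehicle and for letrozole + anti-PD-1 against letrozole, 0% of all tested genes were called by limma, with 539 and 627 at an unadjusted p under 0.05, none called by edgeR and 5 and 9 called by DESeq2. No member had an unadjusted p under 0.05 in either. The 95% interval of the log2 change for anti-PD-1 against vehicle was -0.75 to 0.78 for Areg, -0.97 to 0.57 for Ereg, -0.66 to 0.73 for Btc, -0.38 to 0.20 for Tgfa and -0.22 to 0.16 for Erbb2. The interaction, the difference between the letrozole effects with and without the antibody, called 0% of genes by limma, with 392 at an unadjusted p under 0.05, none by edgeR and 4 by DESeq2. Its estimate for Areg was 0.31 (95% interval -0.76 to 1.39), and for Btc -0.03 (95% interval -1.01 to 0.96), whose sign turned in 13 of 32 alternatives, so a difference between arms of up to about that size was not detectable.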

How the data were processed

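RNA was sequenced from 20 tumours, 5 per group, which the design text calls biological replicates. Per the labels' protocols, 1 µg of Qiagen AllPrep RNA went into each Swift Rapid library. The submitters' processing notes name STAR 2.7.10a, DESeq2 and the build GRCm39 (mm39). How reads were counted, the annotation release and the use of strand are not stated there. The authors deposited 1 table of 127442 transcripts, whose unit is signal: counts scaled by each library's size factor. Whole reads could be recovered for 100% of values at a tolerance of 0.001 (size factors 0.472 to 1.46).

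GENCODE vM21 named 118871 transcripts, 93.3% of them. The 8571 unnamed held 1.79% to 2.77% of reads. The transcript with the highest total stood for each gene, and 49 shared symbols were dropped. Transcripts of a gene can share reads, and Btc has 4 and Nrg1 18 of them. The build of these names differs from the files', so the only coordinates given are those of RefSeq promoter windows on GRCm38.p6.

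The 19840 genes reaching 10 in 5 or more libraries were tested with limma 3.58.1 with a trend on log2(value + 1) in R 4.3.3, in 1 fit of 4 group means (16 residual degrees of freedom), two-sided, with Benjamini-Hochberg adjustment at 0.05 in each of 7 comparisons. The fit was tested on simulated data. Fold changes on this scale understate changes of low genes. The design assumed genes, and the table holds transcripts. All 10 members are named, and of each pathway list up to 4 genes that passed. Members, lists and tests were chosen with earlier results of these data known. Alternatives were other pseudocounts, filters and scalings, the sum over transcripts, the transcript of highest median and a replicate block. Others were recovered reads tested with edgeR 4.0.16 and with DESeq2 1.42.0, the groups alone, and leaving libraries out.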

Additional observations from a re-analysis of the deposited data

Results flagged for a closer look

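Of 40 groups of 5 tumours, 10 members in 4 groups, 6 held a tumour far from the others by Dixon's test, which chance alone passes in about 1 in 20 groups. The 2 groups of Erbb4 passed it by having 1 tumour above 0, so the count of 6 cannot be read against that share. Egfr was 230.372 normalised counts in anti-PD-1 replicate 5, where the other 4 lay between 25.4 and 73.9, and 256.492 in vehicle replicate 3, where the others lay between 7.14 and 77.2. Nrg1 was 155.393 in vehicle replicate 3 and at most 7.88 in the others of that group. Erbb4 was 6.35396 in anti-PD-1 replicate 1 and 1.8722 in vehicle replicate 3, with the others of both groups at 0. Hbegf was 370.648 in anti-PD-1 replicate 1, where the others lay between 164 and 206. Egfr, Hbegf and Nrg1 were not called in any comparison with or without those libraries, and Erbb4 was too low to be tested.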

How the results depend on the processing

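For the letrozole effect averaged over both arms, 4 members were called, and 3 to 5 over 32 alternatives, 4 to 5 when each library was left out in turn. Btc, Ereg and Tgfa were called in all 32, with adjusted p up to 0.0107, 0.0489 and 0.0340, and Erbb2 in all but centring on library medians. Areg was added by DESeq2 and without anti-PD-1 replicate 5. For letrozole against vehicle, where 0 members were called, DESeq2 called 2, as did limma without vehicle replicate 3 and without both vehicle replicate 3 and anti-PD-1 replicate 1, and the range over left-out libraries was 0 to 2. These were Ereg and Btc. For letrozole + anti-PD-1 against vehicle, also 0, the same 3 settings each called 1, Btc, and the range was 0 to 1. For letrozole + anti-PD-1 against anti-PD-1, DESeq2 called 1, Btc, and left-out libraries gave 0. The other 3 comparisons gave 0 throughout. The cause was not tested. With the replicate number as a block the averaged effect called 4 members and the other comparisons 0. Same-numbered libraries correlated at -0.34 to 0.20, and 1 of 20 was closest to its own number, so no pairing by number was seen in these values. The labels do not say what the numbers stand for. Over 80 gene results and 2607 values, 60 calls were lost and 12 gained. No called change turned its sign. Uncalled changes did so in 105 values of 26 results, among them the averaged effect in Hbegf (12 of 32), Erbb3 (3 of 32) and Nrg1 (2 of 31), and anti-PD-1 against vehicle in Areg (10 of 33) and Btc (8 of 33). Without both libraries named, limma called 12.6% of all tested genes in the averaged effect (1347 higher and 1123 lower, against 652 and 737 with all 20), 5.79% for letrozole against vehicle and 4.89% for letrozole + anti-PD-1 against vehicle. Without vehicle replicate 3 alone the shares were 11.9%, 4.14% and 3.53%. DESeq2 called 869 higher and 1097 lower in the averaged effect. Nrg1 and Erbb4 have few reads.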
